A study of Mus musculus with 6 samples.

Results

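The genes described here are the 6 Dlx homeobox genes of the mouse (Dlx1, Dlx2, Dlx3, Dlx4, Dlx5 and Dlx6) and Msx2, a homeobox gene of the related Msx family. They were taken by gene symbol, and all 7 were found among the 23443 symbols in the deposited tables. Their transcripts were measured by RNA sequencing in mesenchyme cells of the embryonic palate, the tissue that closes the roof of the mouth. The mutant embryos carried 1 red fluorescent protein allele and 1 null allele of Osr2, a zinc finger gene needed for growth of the palatal shelves (Osr2RFP/-), and the control embryos carried the same fluorescent allele beside a wild type allele (Osr2RFP/+). Cells of both genotypes were sorted for the fluorescent protein, so every library holds cells in which the Osr2 reporter was on, and all mice had a mixed strain background. There was 1 Osr2RFP/- and 1 Osr2RFP/+ library at embryonic day 12.5 (E12.5), and there were 2 Osr2RFP/- and 2 Osr2RFP/+ libraries at E13.5. Whether a library was made from 1 embryo or several is not stated, and the p-values reflect the spread between libraries and nothing more.

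Dlx proteins are transcription factors that bind DNA through a homeodomain. Their genes lie in convergently transcribed pairs (Dlx1 with Dlx2, Dlx3 with Dlx4, Dlx5 with Dlx6), and in the first pharyngeal arch Dlx1 and Dlx2 are used in both the upper and lower jaw regions while Dlx5 and Dlx6 mark the lower jaw region, downstream of endothelin signalling. Dlx5 and Msx2 are also known from bone formation, where Dlx5 promotes osteoblast differentiation, and Msx2 is a target of bone morphogenetic protein (BMP) signalling whose protein can bind Dlx proteins.

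The libraries had an estimated 14100000 to 17970000 fragments, and 10281 to 10498 genes reached 1 FPKM (fragments counted per kilobase and adjusted for library depth), the unit of all levels below. Osr2 itself was at 163 FPKM in the E12.5 mutant and 215 FPKM in the E12.5 control, and at 68.5 and 88.4 FPKM in the E13.5 mutants against 138 and 152 FPKM in the E13.5 controls. All 12 palatal mesenchyme markers of the list reached 1 FPKM in some library and together summed to at least 692.9 FPKM in each, and the summed markers of endothelium, glia, muscle and forebrain inhibitory neurons, where Dlx genes are also used, stayed at or below 1.30 FPKM in every library. Epithelial markers summed to at most 9.37 FPKM and leukocyte markers to at most 4.02 FPKM. Neuron markers summed to 44.4 FPKM in the E12.5 mutant and 34.1 FPKM in the E12.5 control, and to 80.2 and 91.6 FPKM in the E13.5 mutants against 55.4 and 51.1 FPKM in the E13.5 controls. That sum came mostly from Nefl, Nefm and Gap43. Of the other 7 markers Tubb3 reached at most 1.48 FPKM, and Stmn2, Snap25, Elavl3, Elavl4, Syt1 and Dcx stayed below 1 FPKM in all 6 libraries. Globin and other red cell transcripts summed to 741 FPKM in the E12.5 mutant and 695 FPKM in the E12.5 control, and to 471 and 263 FPKM in the E13.5 mutants against 592 and 500 FPKM in the E13.5 controls; the part of neuron and red cell RNA in the results below was not tested. Xist, which is transcribed from the inactive X chromosome, was high in both E12.5 libraries and in mutant replicate 2 at E13.5 and close to 0 in the other 3 libraries. The titles carry the number 2962 for both E12.5 libraries, 3047 for mutant replicate 1 at E13.5 and 3048 for the other 3 E13.5 libraries, and what the number stands for is not given.

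The members differ in the homeobox, the DNA that encodes the homeodomain. The sequences of Dlx5, whose level in FPKM differed most between the genotypes, of its chromosome neighbour Dlx6, and of Dlx3 and Msx2 are shown because reads of such related genes could in principle be confused. Each is the 180-base coding stretch 5′ to 3′ from the GENCODE M21 transcript on GRCm38, and capitals mark the bases that differ from Dlx5.
Dlx5: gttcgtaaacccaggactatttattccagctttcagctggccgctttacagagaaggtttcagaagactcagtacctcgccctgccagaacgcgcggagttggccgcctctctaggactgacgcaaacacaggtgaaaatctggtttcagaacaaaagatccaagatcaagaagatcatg
Dlx6: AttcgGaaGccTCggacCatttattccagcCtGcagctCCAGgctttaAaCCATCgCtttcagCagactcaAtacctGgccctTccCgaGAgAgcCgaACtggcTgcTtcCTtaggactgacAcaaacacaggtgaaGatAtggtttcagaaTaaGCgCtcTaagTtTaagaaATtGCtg
Dlx3: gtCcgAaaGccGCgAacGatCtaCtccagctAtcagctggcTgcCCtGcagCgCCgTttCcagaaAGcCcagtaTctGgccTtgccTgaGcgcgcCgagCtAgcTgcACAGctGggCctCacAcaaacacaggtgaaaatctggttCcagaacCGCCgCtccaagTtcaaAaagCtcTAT
Msx2: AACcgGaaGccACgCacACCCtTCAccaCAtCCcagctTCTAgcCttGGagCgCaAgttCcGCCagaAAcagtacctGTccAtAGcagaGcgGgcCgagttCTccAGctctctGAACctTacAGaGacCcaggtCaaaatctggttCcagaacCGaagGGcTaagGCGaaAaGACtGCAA

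The homeobox of Dlx6 matched that of Dlx5 at 73.3% of bases, that of Dlx3 at 71.7% and that of Msx2 at 58.9%. Over all 21 pairs of the 7 genes, identity ran from 54.4% to 81.7% (Dlx2 with Dlx3 the most alike). The longest stretch that any pair shared exactly in the homeobox was 26 bases, between Dlx2 and Msx2, while the reads were 75 bases long.

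Dlx1, Dlx2 and Dlx5 made up nearly all Dlx transcript in these cells, and their order differed between libraries. In the E12.5 mutant Dlx1 led with 24.7 FPKM, ahead of Dlx5 with 16.5 and Dlx2 with 10.7 FPKM, and in the E12.5 control Dlx1 had 18.4, Dlx2 8.46 and Dlx5 1.15 FPKM. At E13.5 Dlx5 led in the mutants with 28.2 ± 0.0646 FPKM, followed by Dlx1 with 15.5 ± 0.545 and Dlx2 with 9.46 ± 1.16 FPKM (mean ± SD, n = 2). In the E13.5 controls Dlx1 had 16.5 ± 1.07, Dlx5 11.8 ± 7.87 and Dlx2 9.07 ± 0.380 FPKM (n = 2), and Dlx5 did not differ from either neighbour beyond its own spread. Msx2, Dlx3, Dlx6 and Dlx4 came after them in all 6 libraries, each below 2 FPKM. Of these 4, the E13.5 mutants had Msx2 at 1.29 ± 0.179, Dlx3 at 0.965 ± 0.197 and Dlx6 at 0.764 ± 0.205 FPKM, where Msx2 was above Dlx3 in both libraries and the libraries of Dlx3 and Dlx6 overlapped. The E13.5 controls had Dlx6 at 1.08 ± 1.19, Msx2 at 0.523 ± 0.0802 and Dlx3 at 0.179 ± 0.154 FPKM, and the spread of Dlx6 covered both of the others. In 3 of the 7 genes (Dlx3, Dlx5 and Msx2) both E13.5 mutants were above both E13.5 controls, as they were for 20.8% of the 17697 symbols above 0 in any library.

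**Figure D1:**
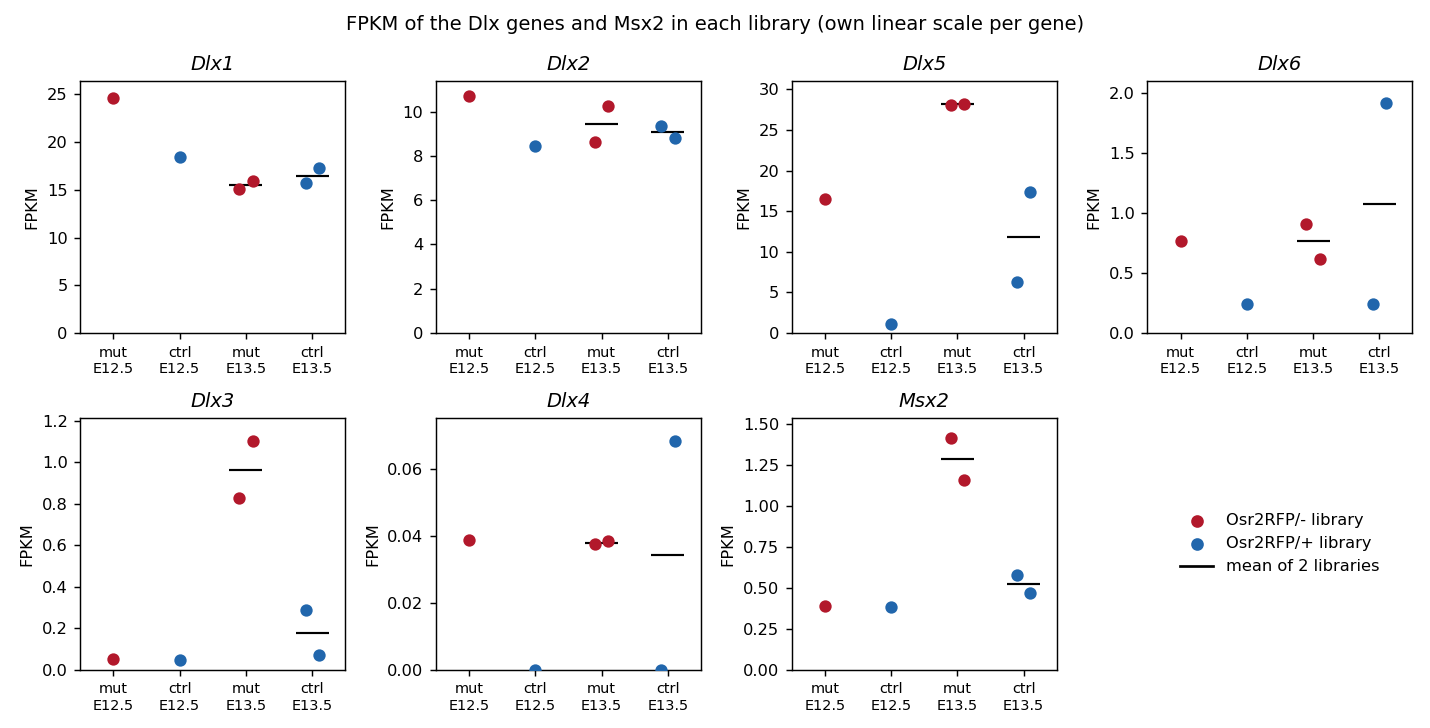
FPKM of each of the 7 genes (vertical axis, linear and on its own scale per gene) in the E12.5 mutant, the E12.5 control, the 2 E13.5 mutants and the 2 E13.5 controls. Points are libraries and bars are means of 2 libraries; Dlx3, Dlx5 and Msx2 have both E13.5 mutants above both E13.5 controls, and the 4 other genes overlap.

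Summed over the 6 Dlx genes, the level was 52.7 FPKM in the E12.5 mutant and 28.3 FPKM in the E12.5 control. At E13.5 the sum was 53.6 and 56.1 FPKM in the mutants, against 31.8 and 45.5 FPKM in the controls. Dlx5 held 31.2% of the sum in the E12.5 mutant and 4.05% in the E12.5 control, and 52.4% and 50.2% in the E13.5 mutants against 19.6% and 38.2% in the E13.5 controls. The share of Dlx1 ran the other way, with 46.8% in the E12.5 mutant and 65.1% in the E12.5 control, and 28.2% and 28.3% in the E13.5 mutants against 49.4% and 37.9% in the E13.5 controls. Shares of a sum are tied to each other, and the level of Dlx1 at E13.5 did not separate by genotype.

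**Figure D2:**
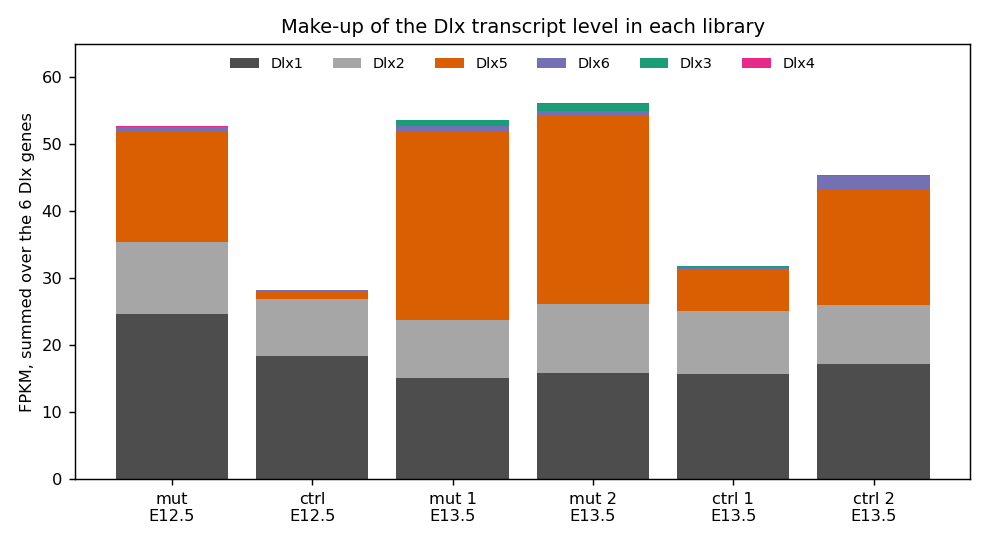
Stacked FPKM of the 6 Dlx genes in each library (vertical axis in FPKM from 0, mutant libraries before control libraries at each age). The 3 mutant bars reach 52.7 to 56.1 FPKM and the 3 control bars 28.3 to 45.5 FPKM, and the part of the bar that differs most is Dlx5.

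Dlx5, the member tied to osteoblast differentiation and to lower jaw identity, had the largest genotype difference of the 6 Dlx genes in FPKM and on the log2(FPKM + 1) scale. Its locus is chr6:6877801-6882068 on the minus strand (GRCm38). At E12.5 the mutant held 16.5 FPKM, from an estimated 817 fragments, and the control 1.15 FPKM, from an estimated 64.2 fragments. At E13.5 it had 28.1 and 28.2 FPKM in the mutants, against 6.24 and 17.4 FPKM in the controls. All 3 mutant libraries were above the control libraries of their age, as they were for 2309 of the 10799 tested genes (21.4%). The 2 E13.5 mutants lay close together, and control replicate 2 had 2.78 times the level of control replicate 1. In RNA from pooled cells like these, more cells with Dlx5 transcript and more transcript per cell cannot be told apart.

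Over both ages Dlx5 rose 3.73-fold in mutants (log2 difference 1.90, SE 0.370, 95% interval 1.07 to 2.73, adjusted p = 0.0404 by limma, 3 against 3 libraries). It was the only one of the 4 tested members to pass, in a comparison where 117 of 10799 tested genes (1.08%) were called higher and 1.44% were called in either direction. Folds and differences are on the log2(FPKM + 1) scale throughout, which understates the change of genes with low levels. The call was lost in 4 of 6 fits that left out 1 library. Without the E12.5 mutant or the E12.5 control the fit is left with the E13.5 contrast alone (1.34, adjusted p = 0.129 and 0.131), and without mutant replicate 1 or control replicate 1 at E13.5 the difference was 2.06 or 1.68 (adjusted p = 0.163 and 0.151). A block by title number in place of age was an alternative chosen after seeing the data. Mutant replicate 1 at E13.5 is the only library with its title number. The block therefore repeats the fit without that library (difference 2.06) and is no separate check. The call was lost under 4 other settings too, with adjusted p up to 0.540 by limma.

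At E13.5 alone the Dlx5 difference was 1.34 on the log2 scale, or 2.53-fold, with a 95% interval of 0.57 to 2.10 (SE 0.338, unadjusted p = 0.00327, adjusted p = 0.130 by limma, 2 against 2 libraries). It did not pass the adjusted threshold of 0.05, which 92 genes (0.852%) passed as higher and 1.29% in either direction, and no other member passed it. The value depended on which control was kept. Without control replicate 2 the difference was 2.01, and without control replicate 1 it was 0.67. A fit with 1 control left cannot measure the spread between the E13.5 controls, so only the size of the difference is given. Without mutant replicate 1, which leaves the 3 E13.5 libraries numbered 3048, the difference was 1.34. Without mutant replicate 2, which leaves the 3 E13.5 libraries with Xist close to 0, it was also 1.34. A fit with 1 mutant left cannot measure the spread between the E13.5 mutants, so again only the size is given.

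At E12.5, with 1 library per genotype and hence no test, Dlx5 was higher in the mutant by 3.03 on the log2 scale, and the plain FPKM ratio was 14.4. Of the 6092 tested genes that reached 5 FPKM in either library, 41 (0.673%) were higher by at least 1 on that scale, and Dlx5 ranked 7th of the 6092 by size. The median gene was itself 0.18 higher in the E12.5 mutant library, which leaves 2.84 for Dlx5 relative to it. The genotype difference of Dlx5 at E13.5 was smaller than that at E12.5 by 1.69 on the log2 scale (SE 0.585, unadjusted p = 0.0180), which did not pass after adjustment (adjusted p = 0.774 by limma, where 4 genes or 0.037% passed). Without control replicate 1 at E13.5 that interaction was -2.36, in a fit that cannot measure the spread between the E13.5 controls.

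**Figure D3:**
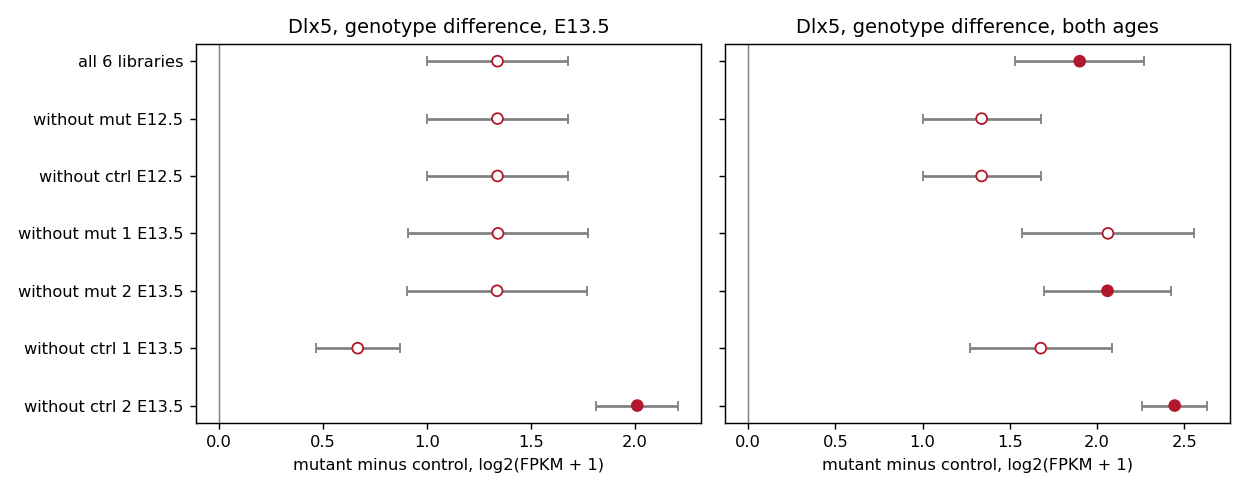
Genotype difference of Dlx5 (horizontal axis, mutant minus control on log2(FPKM + 1)) with all 6 libraries and with each library left out, at E13.5 on the left and over both ages on the right. Bars are 1 SE and filled points have an adjusted p under 0.05; every point is above 0, and leaving out control replicate 1 or 2 at E13.5 gives 0.67 or 2.01 in the left panel. Fits without 1 E13.5 control or mutant cannot measure the spread between the E13.5 libraries of that genotype, so their bars and fill do not include it.

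Dlx5 was listed with 2 transcripts that differ by 1 stretch of 82 bases at chr6:6879629-6879710 (GRCm38, minus strand). The stretch is part of NM_010056 and is missing from NM_198854, and it holds the first 29 bases of the homeobox, marked by capitals.
Dlx5 stretch: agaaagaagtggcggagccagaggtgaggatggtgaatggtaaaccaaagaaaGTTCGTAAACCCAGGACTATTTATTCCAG

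All 82 bases are coding in the long form, and 82 is not a multiple of 3, so the annotated coding sequence is 867 bases in the long form and 438 bases in the short form. The long form made up most of Dlx5 in every library, with 15.6 FPKM in the E12.5 mutant and 1.14 FPKM in the E12.5 control, and 24.18 and 25.02 FPKM in the E13.5 mutants against 6.24 and 15.4 FPKM in the E13.5 controls. The short form took 5.31% of Dlx5 in the E12.5 mutant and 0.0212% in the E12.5 control. At E13.5 it took 14.0% and 11.3% in the mutants, against 0.0002% and 11.5% in the controls. The 2 libraries where it was near 0 were the 2 with the lowest Dlx5, and the split between 2 forms that share all but 82 bases is an estimate of the authors' software.

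Dlx6, the partner of Dlx5 on chromosome 6 (chr6:6863334-6867970, plus strand), was low in all libraries. It had 0.766 FPKM in the E12.5 mutant and 0.239 FPKM in the E12.5 control, and 0.909 and 0.619 FPKM in the E13.5 mutants against 0.243 and 1.92 FPKM in the E13.5 controls. The E13.5 genotypes overlapped, with the 2 controls at the low and the high end. Dlx6 reached 1 FPKM in only 1 library and was therefore not among the genes tested. Fitted without that filter its E13.5 difference was -0.12 (SE 0.542, adjusted p = 1 by limma), and it was 0.50 without control replicate 2 and -0.73 without control replicate 1.

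Control replicate 2 was thus the higher E13.5 control for both genes of the pair, while its Dlx5 lay below both mutants and its Dlx6 above both. Dlx5 exceeded Dlx6 by a factor of 21.5 in the E12.5 mutant and 4.80 in the E12.5 control, and by 30.9 and 45.5 in the E13.5 mutants against 25.7 and 9.05 in the E13.5 controls. These factors are imprecise, because Dlx6 rests on few fragments. It had an estimated 29.6 in the E12.5 mutant and 7.6 in the E12.5 control. At E13.5 it had 36.9 and 25.4 in the mutants against 8.8 and 96.5 in the controls. Dlx6 is overlapped by 2 noncoding genes on the opposite strand. Dlx6os1 was at or below 0.169 FPKM, with its highest value in control replicate 2, and Dlx6as2 was listed at 0 except in control replicate 2 with 0.0287 FPKM. The sources used here do not say whether counting used the strand, so reads of Dlx6 and of these genes cannot be told apart.

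Dlx1 and Dlx2, the pair used in both jaw regions, held similar levels in both genotypes. Dlx1 (chr2:71529445-71533980, plus strand) had 24.7 FPKM in the E12.5 mutant and 18.4 FPKM in the E12.5 control, and 15.1 and 15.9 FPKM in the E13.5 mutants against 15.7 and 17.3 FPKM in the E13.5 controls. The E12.5 mutant was the highest library and the 4 E13.5 libraries overlapped. The E13.5 difference was -0.08 on the log2 scale, with a 95% interval of -0.37 to 0.20 (adjusted p = 0.909 by limma), and over both ages it was 0.08 (adjusted p = 0.780).

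Dlx2 (chr2:71543408-71546754, minus strand) had 10.7 FPKM in the E12.5 mutant and 8.46 FPKM in the E12.5 control, and 8.64 and 10.3 FPKM in the E13.5 mutants against 9.34 and 8.80 FPKM in the E13.5 controls. Both E13.5 controls lay between the 2 mutants. The E13.5 difference was 0.05 with a 95% interval of -0.25 to 0.35 (adjusted p = 0.948 by limma), it was -0.06 without mutant replicate 2, and over both ages it was 0.14 (adjusted p = 0.587). At E12.5 the mutant exceeded the control by 0.40 for Dlx1 and 0.31 for Dlx2, or by 0.22 and 0.13 relative to the median gene.

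The ratio of Dlx1 to Dlx2 stayed between 1.55 and 2.30 in all 6 libraries. This range was narrower than that of Dlx5 to Dlx6, which rests on the few fragments of Dlx6. Dlx1as, a noncoding gene on the opposite strand that shares 3343 bases with the Dlx1 locus, had 4.31 FPKM in the E12.5 mutant and 3.37 FPKM in the E12.5 control, and 3.12 and 3.98 FPKM in the E13.5 mutants against 3.59 and 3.41 FPKM in the E13.5 controls. Its E13.5 difference was 0.01 (adjusted p = 0.992 by limma), and the sign turned with median ratio scaling and in some fits that left out 1 library.

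Dlx3, which is best known from the placenta, the skin, hair and teeth, was nearly silent at E12.5 and low at E13.5. It had 0.0510 FPKM in the E12.5 mutant and 0.0447 FPKM in the E12.5 control. At E13.5 (chr11:95120117-95125291, plus strand) it had 0.825 and 1.10 FPKM in the mutants, from an estimated 80.1 and 108.9 fragments, against 0.288 and 0.0706 FPKM in the controls, from an estimated 26.9 and 7.8 fragments. Both E13.5 mutants were above both controls, a pattern found in 3684 of those 17697 symbols. Dlx3 passed 1 FPKM in only 1 library and was not among the genes tested. Fitted without the filter its E13.5 difference was 0.74 on the log2 scale (SE 0.145, unadjusted p = 0.0190, adjusted p = 0.585 by limma), in a fit where 5 of 23418 genes (0.0214%) passed.

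Dlx4 (chr11:95140447-95145801, minus strand), the partner of Dlx3, was at the edge of detection. It had 0.0387 FPKM in the E12.5 mutant and was listed at 0 in the E12.5 control, and it had 0.0375 and 0.0383 FPKM in the E13.5 mutants against 0 and 0.0682 FPKM in the E13.5 controls. These values rest on an estimated 6.0 fragments or fewer per library, and no difference could be seen at this depth.

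Msx2 (chr13:53466881-53472780, minus strand) was higher in both E13.5 mutants than in both E13.5 controls. It was nearly equal in the lone mutant and control libraries of E12.5, where separation cannot be judged. Its E12.5 levels were 0.389 FPKM in the mutant and 0.383 FPKM in the control. At E13.5 it had 1.41 and 1.16 FPKM in the mutants, against 0.580 and 0.466 FPKM in the controls, from an estimated 116.8 and 96.2 fragments and 44.1 and 45.3 fragments. Both E13.5 mutants were above both controls and above both E12.5 libraries. Of the 10799 genes tested, 2677 (24.8%) had both E13.5 mutants above both controls.

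The E13.5 difference of Msx2 was 0.59, or 1.501-fold on the log2(FPKM + 1) scale, with a 95% interval of 0.26 to 0.91 (SE 0.145, unadjusted p = 0.00293, adjusted p = 0.1197 by limma). It did not pass the adjusted threshold, and an unadjusted p under 0.05 with a higher mutant level was reached by 549 genes (5.08%). Msx2 entered the test only because both E13.5 mutants reached 1 FPKM, so its place among the tested genes is no support for a difference. Over both ages the difference was 0.39 (SE 0.145, adjusted p = 0.292), and the interaction of genotype and age was 0.58 (unadjusted p = 0.0466, adjusted p = 0.833).

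**Figure D4:**
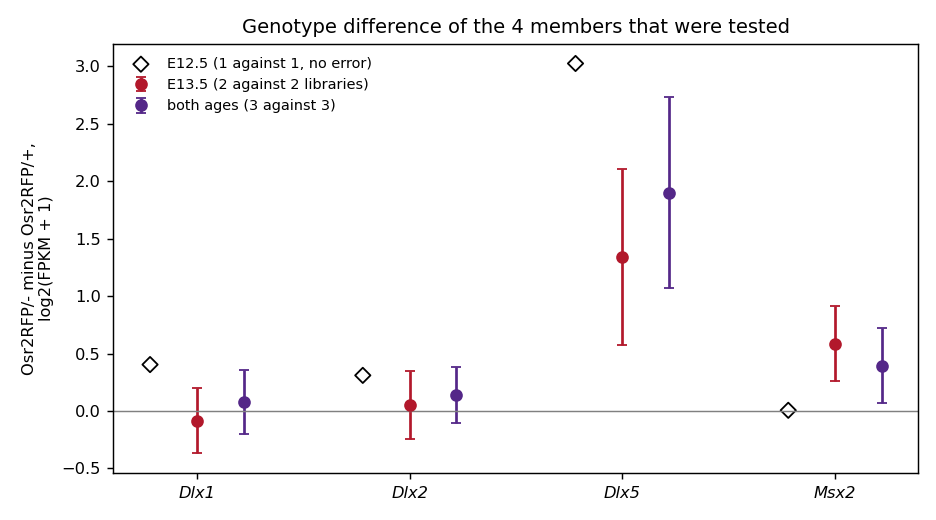
Genotype difference (vertical axis, mutant minus control on log2(FPKM + 1)) of the 4 tested members at E12.5, at E13.5 and over both ages. Bars are 95% intervals of the limma fits and the E12.5 diamonds have no error; the intervals of Dlx5 and Msx2 lie above 0, those of Dlx1 and Dlx2 include 0, and after adjustment over all genes only Dlx5 over both ages passes.

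Msx1, the other Msx gene of the palate and tooth bud, had 1.89 FPKM in the E12.5 mutant and 1.65 FPKM in the E12.5 control, and 1.06 and 1.88 FPKM in the E13.5 mutants against 1.99 and 2.04 FPKM in the E13.5 controls. Its antisense gene Msx1os lies inside the Msx1 locus and was listed far higher, with 32.1 FPKM in the E12.5 mutant and 33.4 FPKM in the E12.5 control, and 22.2 and 21.0 FPKM in the E13.5 mutants against 24.7 and 27.1 FPKM in the E13.5 controls. Without stated strand use, reads of Msx1 and Msx1os cannot be told apart. Neither passed in the E13.5 contrast (differences of -0.31 and -0.25, adjusted p = 0.686 and 0.645 by limma). Msx3 was listed at 0 in all libraries.

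Between the ages, Dlx5 was the only one of the 4 tested members to pass the adjusted threshold. It rose 3.00-fold at E13.5 relative to E12.5 (log2 difference 1.58, SE 0.393, adjusted p = 0.0246 by limma), in a comparison where 804 of 10799 genes (7.45%) were called higher and 16.7% were called in either direction. Both E12.5 libraries carry the title number 2962, and no E13.5 library does. Age therefore cannot be told apart from what that number stands for. Xist was high in both E12.5 libraries, and at E13.5 in mutant replicate 2 alone. The rise rests on the E12.5 control: without it the difference was 0.74 (adjusted p = 0.286), and the call was also lost without mutant replicate 1 at E13.5 (adjusted p = 0.0719). The age difference was -0.39 for Dlx1 (SE 0.132, adjusted p = 0.0685), -0.04 for Dlx2 (adjusted p = 0.841) and 0.43 for Msx2 (SE 0.154, adjusted p = 0.0852). Those of Dlx1 and Msx2 passed only without the E12.5 control (adjusted p = 0.0449 and 0.0457).

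The genes whose levels most resembled those of each tested member were found by Pearson's r on the log2 scale over the 6 libraries, among 5444 genes with a mean of at least 5 FPKM (5445 for Msx2). With 6 points and that many genes, high values are easy to reach, and the libraries share age, genotype and depth. Dlx5 was most like Arhgap31 (r = 0.988), a GTPase-activating protein, Ldb2 (0.984), a LIM domain-binding cofactor, and Ebf4 (0.984), a helix-loop-helix factor. Ldb2 had 11.3 FPKM in the E12.5 mutant and 6.69 FPKM in the E12.5 control, and 13.3 and 13.5 FPKM in the E13.5 mutants against 9.14 and 10.5 FPKM in the E13.5 controls, so that, as for Dlx5, both E13.5 mutants were highest and the E12.5 control was lowest.

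Msx2 was most like Armcx3 (r = 0.997), Trp53i11 (0.978) and Gpc1 (0.977), a glypican, and of these Trp53i11 had 13.3 and 12.3 FPKM in the E13.5 mutants against 8.81 and 7.94 FPKM in the E13.5 controls. Dlx1 was most like Got1 (0.997), Fam120b (0.995) and Rbmxl1 (0.993), and Dlx2 most like Ifnar1 (0.998), Bnc2 (0.995) and Rsrc2 (0.995). The 3 likest genes of Dlx1 were all highest in the E12.5 mutant. The number of genes with r over 0.95 was 73 for Dlx1, 71 for Dlx2, 16 for Dlx5 and 8 for Msx2. Between the members, r was 0.52 for Dlx1 with Dlx2, -0.14 for Dlx1 with Dlx5, -0.66 for Dlx1 with Msx2, 0.43 for Dlx2 with Dlx5, -0.03 for Dlx2 with Msx2 and 0.64 for Dlx5 with Msx2.

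Among 20 genes of the endothelin pathway and of jaw patterning, some of which act upstream of Dlx5 and Dlx6 and some downstream, 14 were tested, and at E13.5 1 was higher and 1 lower in mutants (over all genes, 0.852% were higher and 0.435% lower). Mef2c, a transcription factor of the same pathway and of bone, was at 2.97 FPKM in the E12.5 mutant and 1.04 FPKM in the E12.5 control, and at 7.96 and 9.57 FPKM in the E13.5 mutants against 2.61 and 1.86 FPKM in the E13.5 controls. It rose at E13.5 by 1.60 (SE 0.153, adjusted p = 0.00143 by limma) and over both ages by 1.38 (adjusted p = 0.00279; 0.0526 without mutant replicate 1 at E13.5).

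Ednra, the endothelin receptor, was at 59.6 FPKM in the E12.5 mutant and 68.5 FPKM in the E12.5 control, and at 48.4 and 53.2 FPKM in the E13.5 mutants against 82.0 and 86.0 FPKM in the E13.5 controls. It fell by 0.72 at E13.5 (SE 0.137, adjusted p = 0.0444 by limma), a call that 8 of 16 alternative settings lost, among them leaving out control replicate 1 (adjusted p = 0.314) or control replicate 2 (0.457). Its ligand Edn1 was at or below 0.0114 FPKM, and the arch factor Hand2 at or below 0.163 FPKM, in all libraries. The list's median difference was 0.04, beside 0.04 over all genes tested. Over both ages Mef2c alone passed.

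Among 23 genes of BMP signalling, the pathway that feeds Msx2 and Dlx5, 19 were tested, and at E13.5 3 ligands were higher and none was lower, beside 0.852% and 0.435% over all genes. Bmp7 had 12.1 FPKM in the E12.5 mutant and 4.56 FPKM in the E12.5 control, and 12.8 and 11.8 FPKM in the E13.5 mutants against 6.25 and 5.39 FPKM in the E13.5 controls, and it rose by 0.97 at E13.5 (adjusted p = 0.00912 by limma; 0.0614 without control replicate 2). Bmp3, which antagonises other BMPs, rose by 1.17 (adjusted p = 0.00961) and Bmp5 by 0.92 (adjusted p = 0.0216). The Bmp5 call was lost when mutant replicate 1, mutant replicate 2 or control replicate 2 at E13.5 was left out (adjusted p = 0.0640, 0.0526 and 0.0808 in that order).

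Bmp4, a main BMP of palate and tooth mesenchyme, differed by 0.13 at E13.5 (adjusted p = 0.865). The targets Id1, Id2, Id3 and Id4 differed by 0.30, 0.57, 0.18 and 0.02, and none passed (adjusted p of 0.169 to 0.986). The list's median was 0.13, beside 0.04 over all genes. The same 3 ligands passed over both ages. There Bmp3 was lost without mutant replicate 1 or control replicate 1 at E13.5, and Bmp5 without mutant replicate 1. Bmp3 was also lost with a pseudocount of 5, a mean of at least 1 FPKM, equal FPKM sums, median ratio scaling or the highest transcript alone. Its adjusted p was then 0.0520 to 0.124 by limma. With no filter on low levels none of the 3 passed.

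Of 13 osteoblast genes, 8 were tested, and 4 were higher and none lower at E13.5, beside 0.852% higher and 0.435% lower over all genes. The median difference of the 8 was 0.98, beside 0.04 over all genes. Runx2, the master regulator of the osteoblast, had 45.8 FPKM in the E12.5 mutant and 16.3 FPKM in the E12.5 control, and 68.0 and 82.0 FPKM in the E13.5 mutants against 27.2 and 22.8 FPKM in the E13.5 controls (difference 1.55, adjusted p = 0.00170 by limma). Alpl (1.79, adjusted p = 0.000697), Sp7 (1.56, adjusted p = 0.00204) and Mef2c also rose. With 1 library left out, the E13.5 difference ran from 1.41 to 1.68 for Runx2 and from 1.65 to 1.93 for Alpl. It ran from 1.36 to 1.77 for Sp7 and from 1.43 to 1.77 for Mef2c. Fits that leave 1 library in an E13.5 group cannot measure the spread of that group, so only sizes are given. Each of the 4 calls was lost under 1 of the 16 alternative settings (adjusted p of 0.399 to 0.465 by limma). Over both ages Runx2 (1.51, adjusted p = 0.000679), Alpl (1.52, adjusted p = 0.00277) and Mef2c passed, and Sp7 did not (1.04, adjusted p = 0.1202).

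The 2 E13.5 controls stood differently for Dlx5 and for these genes. Runx2, Alpl and Mef2c were higher in control replicate 1 than in control replicate 2, while Sp7 and Dlx5 were higher in control replicate 2. In the E12.5 mutant Sp7 was at 0.693 FPKM, beside 0.704 FPKM in the E12.5 control. Dlx5, Runx2, Alpl and Mef2c were higher in that mutant, by 3.03, 1.44, 0.997 and 0.960 on the log2 scale, with 1 library per genotype.

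Known binding partners of these proteins did not pass in either genotype contrast. All 4 listed (Maged1, Ndn, Pias2 and Grip1) were tested, with a median difference of 0.09 at E13.5. Those with the smallest p were Grip1 (0.16, adjusted p = 0.823 by limma) and Maged1 (0.16, adjusted p = 0.848), and Maged1, whose protein binds Dlx5 and Msx2, was at 142 and 140 FPKM in the E13.5 mutants against 128 and 124 FPKM in the E13.5 controls.

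Of 10 genes of tooth mesenchyme, another site of Dlx use, 9 were tested. At E13.5 1 (Runx2) was higher, beside 0.852% of all genes, 2 (Fgf10 and Lhx8) were lower, beside 0.435%, and 6 did not pass. Fgf10 and Lhx8 had differences of -0.81 and -0.71 (adjusted p = 0.0169 and 0.0427 by limma). The Fgf10 call was lost without control replicate 2 (adjusted p = 0.0672), and that of Lhx8 without control replicate 1 (0.184) or 2 (0.470). Over both ages Runx2 and Fgf10 passed (Fgf10 -0.63, adjusted p = 0.0439, lost in each of the 4 fits without 1 E13.5 library), and Lhx8 did not (adjusted p = 0.0551).

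All 12 markers of palatal mesenchyme, the sorted tissue, were tested. At E13.5 none was higher, 3 (Osr1, Osr2 and Shox2) were lower, beside 0.435% of all genes, and 9 did not pass. Osr2 is itself the gene with the null allele in the mutants, so its place among the 3 is no support for a change of markers. The 3 differences were -1.03, -0.89 and -0.70 (adjusted p = 0.0370, 0.0409 and 0.0462 by limma). The Osr2 and Shox2 calls were lost without either control (adjusted p of 0.217 to 0.421), and that of Osr1 without either mutant or control replicate 2 (0.0606 to 0.148). Over both ages Osr1 passed (-0.95, adjusted p = 0.0165; 0.117 without mutant replicate 1 at E13.5), and Osr2 (adjusted p = 0.0636) and Shox2 (0.117) did not.

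Of 10 neuron markers, 4 were tested and Nefm was higher at E13.5 (difference 1.54, adjusted p = 0.0256 by limma; 0.104 without mutant replicate 2). Nefl, Gap43 and Tubb3 differed by 0.78, 0.36 and -0.30 and did not pass (adjusted p = 0.0704, 0.407 and 0.738), and over both ages Nefl passed too, with all 6 libraries but in only 1 of the 6 fits that left 1 out. None of the 10 markers of forebrain inhibitory neurons reached 1 FPKM in any library, and Gad1 was listed at 0 in all 6. Of 11 red cell genes 7 were tested. At E13.5 Hba-a1 was lower (-5.02, adjusted p = 5.39e-06 by limma) and Hba-a2 higher (3.93, adjusted p = 0.000437), beside 0.435% and 0.852% of all genes. Neither passed over both ages (adjusted p = 0.659 and 0.174). Hba-a1 had 0.279 and 0.132 FPKM in the E13.5 mutants against 47.6 and 30.5 FPKM in the E13.5 controls. Hba-a2 had 38.5 and 23.8 FPKM in those mutants against 0.551 and 1.71 FPKM in those controls. Each E13.5 library was thus high for 1 of these globin genes and low for the other. How reads were divided between them was not tested, so the opposite calls are no support for a change in globin transcript. The epithelial marker Perp and the leukocyte markers Fcer1g and Cd68 did not pass in either genotype contrast.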

How the data were processed

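RNA was sequenced as pairs of 75 bases from sorted palatal mesenchyme. The authors deposited FPKM values per RefSeq transcript, per the file headers, in tables named for Cufflinks; no source used here gives its version. The submitters' processing notes list mm10 and mm9 as builds, with TopHat 1.4.1 and Bowtie 0.12.7, and 96.9% of matched transcripts fell within their GRCm38 gene, so positions are on that build (mm10). The labels name a Nextera and a TruSeq stranded kit. The deposited coverage signal per transcript, per the file headers, served only to estimate fragments, taking 2 × 75 bases per fragment. Without read counts there are no counting intervals.

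FPKM were summed per symbol, and 25 symbols with a failed estimate were left out. Genes with at least 1 FPKM in at least 2 of 6 libraries (10799) were tested on log2(FPKM + 1) with limma 3.58.1 in R 4.3.3, two-sided, with an intensity trend and Benjamini-Hochberg adjustment over all genes tested. One mean per group gave the E13.5 contrast and the interaction (2 residual degrees of freedom), which assumes that the lone E12.5 libraries vary like those of E13.5. An additive fit gave genotype over both ages and age (3 degrees of freedom). At E12.5 a difference of 1 at 5 FPKM or more was counted. Alternatives changed the pseudocount, filter, scaling, transcript choice, antisense handling, trend or libraries, 1 at a time, and a block by title number was added after seeing the data. Of 142 listed genes 141 were found. Named are all members, other Dlx and Msx symbols, Osr2, list members past the threshold in a genotype contrast (otherwise up to 2 by p), and the 3 genes most like each tested member. Bmp4, the Id genes, Edn1, Hand2, Xist, Sp7 at E12.5 and single neuron markers were named after their values were seen. The members and lists were chosen with earlier results of these data known. Homeobox sequences were taken from GENCODE M21 transcripts with Biopython 1.88.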

Additional observations from a re-analysis of the deposited data

How the results depend on the processing

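No paired analysis was possible because the labels give no replicate numbers that match mutants to controls. The title numbers, whose meaning is not given, were used as a block in place of age, an alternative chosen after seeing the data: 61 genes were called over both ages, and Dlx5 had 2.06 (adjusted p = 0.164 by limma). Of the other genes named, Mef2c, Bmp3, Bmp5, Fgf10, Osr1, Nefm and Nefl lost their calls under that block, as they did without mutant replicate 1. The interaction could not be estimated without an E12.5 library, and Msx2 was not tested where a mean of 1 FPKM was asked. Fits without 1 E13.5 library take the lone sample to vary like the other groups. The depth limits Dlx4, Dlx6 and Dlx3. Causes of the changes below were not tested, and values of genes are log2 differences unless FPKM is given. With no filter, the genes called were 5 at E13.5 (139 as reported), 0 over both ages (156), 31 by age (1804) and 343 for the interaction (4), and Dlx5 had 1.90 over both ages (adjusted p = 0.540 by limma) and 1.58 by age (0.326); 1980 genes had an unadjusted p under 0.05 over both ages. With a mean of at least 1 FPKM the counts were 81 at E13.5 and 11 for the interaction, and Dlx5 over both ages had an adjusted p of 0.0648. Median ratio scaling gave 78 genes at E13.5 and 2 for the interaction, -0.010 for Dlx1 over both ages, 1.82 for Dlx5 over both ages (adjusted p = 0.108), 0.016 for Dlx2 by age and a mean of 28.1 FPKM for Dlx5 in E13.5 mutants. Equal FPKM sums gave -0.023 for Dlx1 over both ages, 0.024 for Dlx2 by age and 28.6 FPKM for Dlx5 in E13.5 mutants. The highest transcript alone gave 37 genes at E13.5, 69 over both ages, 1032 by age and 91 at E12.5 (57 as reported), and for Dlx5 1.81 over both ages (adjusted p = 0.150), 1.48 by age (0.0738) and 24.6 FPKM in E13.5 mutants. A pseudocount of 5 gave 34 genes at E12.5. Summing antisense transcripts gave Dlx1 means of 19.1 FPKM in E13.5 mutants and 20.0 FPKM in E13.5 controls. For Dlx1as at E13.5, the difference was -0.028 with median ratio scaling and -0.13 to 0.15 with 1 library left out. Leaving out 1 library gave 75 to 192 genes at E13.5, 65 to 159 over both ages, 465 to 1713 by age and 13 to 37 for the interaction. It gave -0.062 to 0.16 for Dlx2 and 0.67 to 2.01 for Dlx5 at E13.5; -0.083 to 0.16 for Dlx1, 1.34 to 2.45 for Dlx5 and -0.31 to 0.016 for Msx1 over both ages; -0.64 to -0.15 for Dlx1, -0.17 to 0.090 for Dlx2, 0.74 to 2.43 for Dlx5 and 0.14 to 0.72 for Msx2 by age; and -2.36 to -1.02 for the Dlx5 interaction.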
